A study of Homo sapiens with 9 samples.

Results

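The KIF genes, which encode the kinesin motor proteins, were followed in HCCC-9810 cells after knockdown of BAP1 or MBD5. All probe sets whose single annotated symbol was KIF followed by a number were taken, which gave 93 probe sets of 38 genes among 44988 probe sets of 18132 genes with a single symbol. Antisense RNAs and pseudogenes were not counted. The rule itself uses the symbol alone, but the members and the gene lists were chosen with earlier results of these data known. HCCC-9810 is a human cholangiocarcinoma cell line, that is, a line from a cancer of bile duct cells. The si-BAP1 group had been transfected with siRNAs against BAP1, a nuclear deubiquitinase and tumour suppressor, and the si-MBD5 group with siRNAs against MBD5, a methyl-CpG-binding domain protein. The control group carries the name si-Control in the sample titles, while its treatment is given as a control shRNA, so the controls may differ from the knockdown cells also in the kind of RNA delivered. Each group had 3 biological replicates, each on its own Affymetrix array. All groups share a single cell line. The dose, the time after transfection and the siRNA sequences are not given in the sources used here.

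Kinesins are motors that use ATP to move along microtubules or to change how microtubules grow and shrink. Mitotic kinesins build the spindle, position the chromosomes and organise the midzone at cytokinesis, and their transcripts are known to peak late in the cell cycle. Transport kinesins carry vesicles, endosomes, mitochondria and ciliary components, usually with adaptor proteins, in dividing and non-dividing cells alike. A remaining set acts in cilia, in signalling or on microtubule ends. By these roles the genes fell into 12 mitotic, 13 transport and 13 other kinesins. The probe set with the highest mean over all 9 arrays, knockdowns included, stood for a gene as its brightest. The filter was a mean intensity of 25.51 over the 9 arrays, which 35 genes and 69 probe sets exceeded. The genes under the filter were KIF2B, KIF6 and KIF25, whose brightest probe sets averaged 6.44, 16.9 and 8.53. KIF4B was represented by 1 probe set that also names KIF4A and was therefore not a member.

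The core promoters of the mitotic kinesins often held the letters of a cell cycle element. In late cell cycle genes, a cell cycle genes homology region (CHR) close to the start site, often with CCAAT boxes upstream of it, is the known binding place of the DREAM complex and its partners. Windows of 300 bases, 250 before and 50 after each start site, were read from RefSeq (GRCh38.p14). They were found for 32 of the 38 genes, 41 windows in all, and the genes without one were KIF5A, KIF13B, KIF19, KIF21B, KIF26B and KIF27. The CHR was searched as TTTGAA or TTCGAA and the CCAAT box as CCAAT, both on either strand. CHR letters were present in 10 of 13 mitotic windows (76.9%), 1 of 16 transport windows (6.25%) and 1 of 12 other windows (8.33%), beside 16.4% of all 34796 promoters in the table. The windows of KIF22 overlap and share the same CHR letters. By gene, CHR letters were present in 9 of 12 mitotic, 1 of 11 transport and 1 of 9 other kinesins with a window. Both motifs stood together in 8 mitotic windows (61.5%) and in 1 window of each of the other classes, against 6.4% of all promoters. The transport window was that of KIF5B and the other one that of KIF24. Such a match is a description of the letters and not evidence of binding.

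The 100 bases before the start site are given 5′ to 3′ for 7 genes, in lower case with CHR and CCAAT letters, or their reverse complements, in capitals. KIF4A, KIF11, KIF23 and KIF18A show both motifs in mitotic kinesins, of which KIF4A and KIF11 rose in both knockdowns, KIF23 fell in si-BAP1 cells and KIF18A passed in neither. KIF20A and KIF2C are the mitotic genes above the filter without CHR letters. KIF1C is the transport kinesin that rose. The stretches lie at chrX:70290004-70290103, plus strand (KIF4A), chr10:92593030-92593129, plus strand (KIF11), chr15:69414249-69414348, plus strand (KIF23), chr11:28108157-28108256, minus strand (KIF18A), chr5:138179012-138179111, plus strand (KIF20A), chr1:44739737-44739836, plus strand (KIF2C), chr17:4997850-4997949, plus strand (KIF1C).
KIF4A: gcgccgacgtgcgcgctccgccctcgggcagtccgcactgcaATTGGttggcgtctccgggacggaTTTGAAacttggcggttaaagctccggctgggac
KIF11: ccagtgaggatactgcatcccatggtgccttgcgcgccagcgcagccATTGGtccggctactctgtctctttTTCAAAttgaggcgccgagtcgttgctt
KIF23: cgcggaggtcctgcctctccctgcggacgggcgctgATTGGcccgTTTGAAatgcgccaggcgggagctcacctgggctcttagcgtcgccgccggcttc
KIF18A: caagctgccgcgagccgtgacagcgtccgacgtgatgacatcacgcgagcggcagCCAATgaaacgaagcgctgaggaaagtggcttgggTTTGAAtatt
KIF20A: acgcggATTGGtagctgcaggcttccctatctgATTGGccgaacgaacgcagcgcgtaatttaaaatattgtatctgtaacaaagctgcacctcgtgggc
KIF2C: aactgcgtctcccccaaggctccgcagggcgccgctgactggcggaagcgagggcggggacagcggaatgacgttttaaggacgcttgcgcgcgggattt
KIF1C: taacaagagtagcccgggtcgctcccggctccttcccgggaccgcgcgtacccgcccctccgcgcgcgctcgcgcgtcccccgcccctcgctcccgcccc

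In this numbering, position -1 is the base before the start site. The first base of the CHR lies at -34 in KIF4A, -28 in KIF11, -55 in KIF23 and -10 in KIF18A, with a CCAAT box beginning at -58, -53, -64 and -45 in the same order. KIF20A has CCAAT boxes beginning at -94 and -67. None of the searched letters stands in the stretches of KIF2C and KIF1C, which says only that these letters are not there.

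The intensities are Affymetrix MAS5 values on a linear scale. Arrays were correlated on the log2 scale over the brightest probe set of each gene above the filter. Replicate arrays correlated at 0.997 to 0.999, against 0.993 to 0.997 between arrays of different groups. Probe sets under the filter and further probe sets of a gene did not enter these correlations. On its brighter probe set, MBD5 read 6.20, 6.20 and 6.11 on the si-MBD5 arrays and 7.16, 7.06 and 6.90 on the si-Control arrays. The means were 6.17 ± 0.056 in si-MBD5 cells and 7.04 ± 0.13 in si-Control cells (SD, n = 3 each), under the filter. No array overlapped, and the two-sided exact permutation p of 0.1 is the smallest that 3 arrays against 3 allow. limma did not call it in a fit of all probe sets except the Affymetrix controls (-0.055 on the log2 scale, adjusted p = 0.308). It lay at the 11.9th percentile of mean intensity over all probe sets. The other MBD5 probe set passed neither test, at 2.34 ± 0.081 in si-MBD5 cells and 2.39 ± 0.37 in si-Control cells (SD, n = 3 each, exact permutation p = 0.8). BAP1 itself was not analysed here. Of the cholangiocyte markers, KRT7 and SOX9 exceeded the filter, while KRT19, EPCAM, SPP1 and CFTR did not. The summed intensity was 1064 to 1151 in si-BAP1, 1030 to 1109 in si-MBD5 and 1165 to 1247 in si-Control cells. KRT7 was called lower in si-BAP1 (-0.15 ± 0.045, adjusted p = 0.0236) and in si-MBD5 cells (-0.19 ± 0.045, adjusted p = 0.0113), and SOX9 passed in neither. Hepatocyte (3 of 6), fibroblast and endothelial (4 of 8) and immune (2 of 5) markers above the filter were dim, with the defining markers ALB and PTPRC under it, and the largest sum of any of these lists on any array was 257. The fibroblast and endothelial sum was 231.3 to 257 in si-MBD5 cells and 223 to 230.6 in si-Control cells without overlap. Of these, PDGFRB was called higher in si-BAP1 (0.16 ± 0.053, adjusted p = 0.0406) and in si-MBD5 cells (0.24 ± 0.053, adjusted p = 0.00629), and the part of these markers in the results was not tested. The 3′ to 5′ ratio of the ACTB control probe sets, which bears on RNA integrity, measured 11.1 ± 0.31 in si-BAP1, 12.3 ± 0.72 in si-MBD5 and 12.2 ± 0.52 in si-Control cells (SD, n = 3 each), and that of GAPDH was 1.08, 1.07 and 1.06. The ACTB ratio of the si-BAP1 arrays lay below that of all other arrays, and its part in the si-BAP1 results was not tested.

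More KIF genes rose than fell in either knockdown, and the changes were small. In si-BAP1 against si-Control cells, 13 of the 35 KIF genes passed an adjusted p of 0.05 (limma, Benjamini-Hochberg over 12434 genes), 10 higher and 3 lower, which is 37.1% beside a background of 23.5% of all genes tested (12.4% higher and 11.1% lower). In si-MBD5 against si-Control cells, 11 passed, 9 higher and 2 lower, or 31.4% beside 16.3% (7.29% higher and 8.99% lower). Differences are given as log2 fold changes of intensity + 16, with their SE, over 3 arrays a group. The median log2 fold change of the 35 genes was 0.074 in si-BAP1 and 0.072 in si-MBD5 cells, beside 4.72e-04 and 8.52e-05 for all genes tested. Both comparisons use the same si-Control arrays. The 3 arrays of a knockdown lay entirely outside the control range for 17 of the 35 genes in si-BAP1 cells (14 above and 3 below, beside 37.5% of all genes) and for 12 in si-MBD5 cells (11 above and 1 below, beside 30.4%). By class, 4 mitotic kinesins were higher and 1 lower of 11 in si-BAP1 cells, 1 transport kinesin was higher and 2 lower of 13, and 5 other kinesins were higher and none lower of 11, which is 45.5%, 23.1% and 45.5% of each class. In si-MBD5 cells the counts were 6 higher and none lower among mitotic kinesins, 1 higher and 2 lower among transport kinesins, and 2 higher and none lower among the others, or 54.5%, 23.1% and 18.2%. The transport share in si-BAP1 and the share of the others in si-MBD5 cells were thus close to the background of all genes. With the filter at the 60th percentile, that background was larger, at 31.0% in si-BAP1 and 21.9% in si-MBD5 cells. The tested mitotic kinesins lay at the 67.8th to 94.1st percentile of mean intensity. Without si-BAP1 replicate 3 the si-BAP1 count was 8 genes in place of 13. In bulk RNA, a different share of cells in mitosis and a different amount of RNA per cell cannot be told apart.

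**Figure D1:**
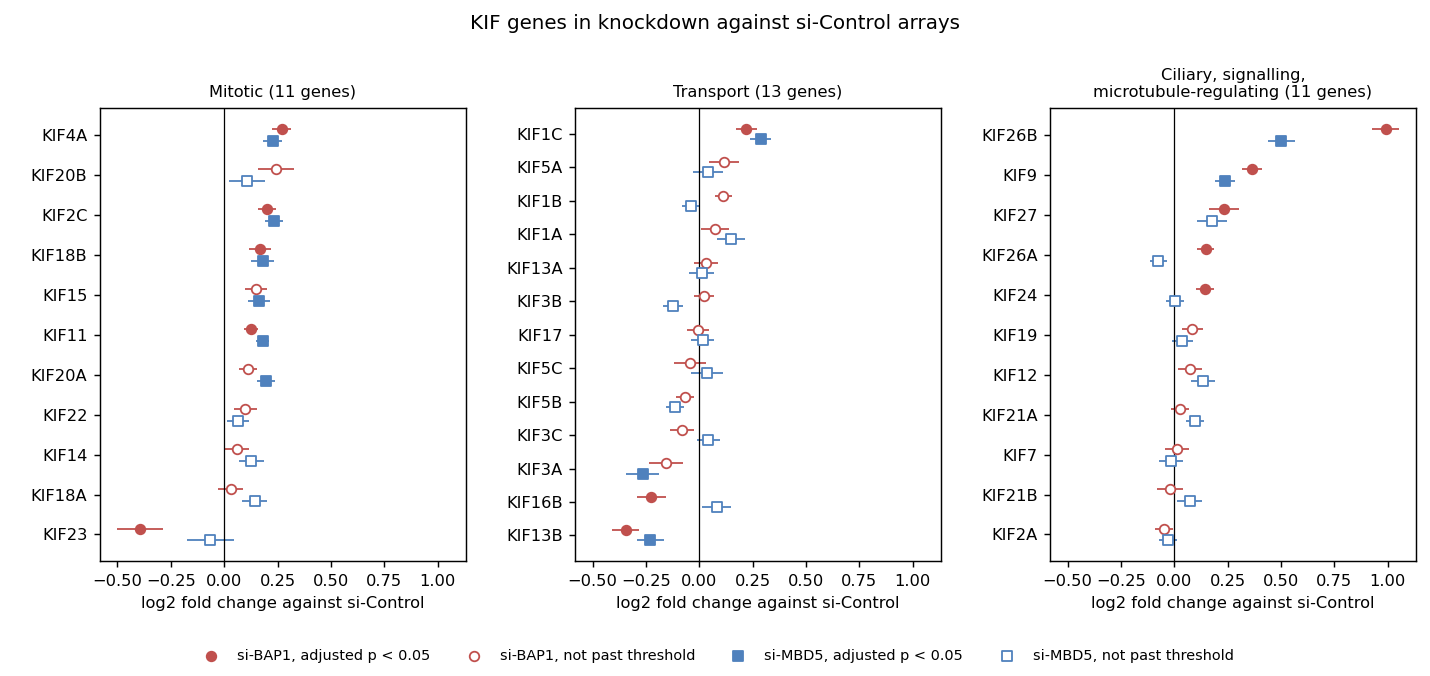
Log2 fold change of each KIF gene above the filter in si-BAP1 and in si-MBD5 against si-Control arrays (n = 3 each, log2(intensity + 16)), by class. Filled symbols mark adjusted p under 0.05 and lines the standard error; most mitotic kinesins lie right of 0, KIF23 lies left of it in si-BAP1 at -0.40, and transport kinesins lie on both sides.

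**Figure D2:**
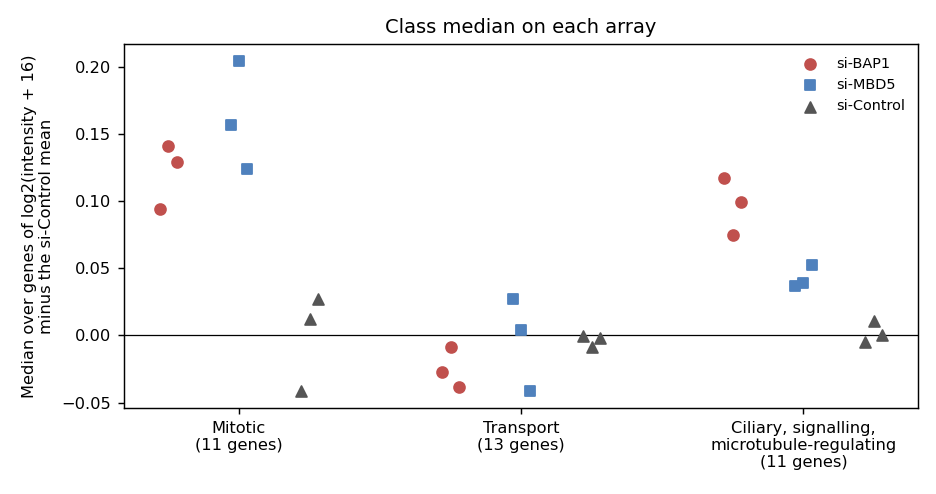
Median over the genes of a class of log2(intensity + 16) minus the mean of the si-Control arrays, 1 point an array. For the mitotic and for the other kinesins, the median of every si-BAP1 and si-MBD5 array exceeds that of every si-Control array. The transport medians of the groups overlap.

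The class medians on single arrays separated both knockdowns from the controls for the mitotic and the other kinesins, and not for the transport kinesins. For mitotic kinesins the median over the 11 genes, set against the si-Control mean, was 0.094, 0.14 and 0.13 on the si-BAP1 arrays, 0.16, 0.20 and 0.12 on the si-MBD5 arrays and -0.042, 0.012 and 0.027 on the si-Control arrays. All 6 knockdown arrays were thus above the controls. For transport kinesins the medians were -0.038 to -0.0084 in si-BAP1, -0.041 to 0.027 in si-MBD5 and -0.0086 to -3.09e-04 in si-Control cells, which overlap. For the other kinesins they were 0.075 to 0.12 in si-BAP1 and 0.037 to 0.053 in si-MBD5 cells, against -0.0047 to 0.011 in si-Control cells. Here too all knockdown arrays were above the controls.

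Among the mitotic kinesins, KIF4A and KIF2C were higher in both knockdowns under every processing alternative tried. KIF4A is a chromokinesin that limits midzone microtubule length together with PRC1. Its brightest probe set (11720241_at) read 267, 279 and 282 on the si-BAP1 arrays, 256, 284 and 263 on the si-MBD5 arrays and 223, 226 and 229.6 on the si-Control arrays. Every knockdown array lay above every si-Control array. The log2 difference was 0.27 ± 0.045 in si-BAP1 (SE, adjusted p = 6.01e-04) and 0.23 ± 0.045 in si-MBD5 cells (adjusted p = 0.00356). A further KIF4A probe set (11749419_x_at) gave 0.007 and 0.022 with no call. KIF2C, the centromeric depolymerase MCAK, read 657, 671 and 657 on the si-BAP1 arrays, 642, 705 and 688 on the si-MBD5 arrays and 553, 585 and 584 on the si-Control arrays. Again all knockdown arrays lay above the controls, with differences of 0.20 ± 0.041 (adjusted p = 0.00283) in si-BAP1 and 0.23 ± 0.041 (adjusted p = 0.00168) in si-MBD5 cells. A further KIF2C probe set (11729623_a_at) read 128, 131 and 121 on the si-BAP1 arrays, 116, 122 and 127 on the si-MBD5 arrays and 105, 112 and 114 on the si-Control arrays. It was above the controls on all knockdown arrays and passed in si-BAP1 (0.17 ± 0.049, adjusted p = 0.0223) but not in si-MBD5 cells (0.12 ± 0.049, adjusted p = 0.128). The si-BAP1 call was lost without si-BAP1 replicate 1 or 2 or si-Control replicate 1 or 2 (adjusted p 0.0702, 0.0790, 0.0935 and 0.0521).

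The spindle motor KIF11 and the depolymerase KIF18B were also higher in both knockdowns, and KIF15 was higher in si-MBD5 cells. KIF11, also known as Eg5, slides antiparallel microtubules and drives the spindle poles apart. It read 714, 733 and 726 on the si-BAP1 arrays, 754, 755 and 749.9 on the si-MBD5 arrays and 669, 669 and 651 on the si-Control arrays. The si-MBD5 arrays were highest, the si-BAP1 arrays intermediate and the si-Control arrays lowest, with no overlap. Between the knockdowns KIF11 was not called (-0.055 ± 0.032, adjusted p = 0.338), and their arrays did not overlap for 25% of all genes. The differences were 0.12 ± 0.032 (adjusted p = 0.011) in si-BAP1 and 0.18 ± 0.032 (adjusted p = 0.00176) in si-MBD5 cells. A second KIF11 probe set (11727490_x_at) gave 0.055 and 0.069 with no call, and with the mean of both KIF11 lost its calls (adjusted p 0.157 and 0.0676). KIF15, which supports the bipolar spindle beside KIF11, read 184, 209 and 186 on the si-BAP1 arrays, 199, 199.5 and 187 on the si-MBD5 arrays and 172, 168 and 178 on the si-Control arrays. All knockdown arrays exceeded the controls, and the test was passed in si-MBD5 (0.16 ± 0.051, adjusted p = 0.0458) but not in si-BAP1 cells (0.15 ± 0.051, adjusted p = 0.0526). The si-MBD5 call was lost without any 1 of 6 arrays: si-BAP1 replicate 3 (adjusted p 0.0608), si-MBD5 replicate 1 (0.135) or 2 (0.106), and si-Control replicate 1 (0.110), 2 (0.161) or 3 (0.0550). KIF18B, a plus-end motor that works with KIF2C on astral microtubules, read 93.6, 90.4 and 98.9 on the si-BAP1 arrays, 99.3, 89.7 and 96.7 on the si-MBD5 arrays and 79.3, 87.5 and 79.7 on the si-Control arrays. All its knockdown arrays lay above the controls, and it passed in both knockdowns (0.17 ± 0.053, adjusted p = 0.033 in si-BAP1 and 0.18 ± 0.053, adjusted p = 0.0328 in si-MBD5). These calls depended on single arrays: the si-BAP1 call was lost without si-BAP1 replicate 1 or 3 or si-Control replicate 1 or 3 (adjusted p 0.0701, 0.141, 0.112 and 0.105), and the si-MBD5 call without si-MBD5 replicate 1 or 3 or si-Control replicate 1 or 3 (0.123, 0.0816, 0.109 and 0.106). A second KIF18B probe set held identical values on all 9 arrays, and 2 further ones gave 0.045 and 0.073 in si-BAP1 and 0.10 and 0.13 in si-MBD5 cells with no call. With the mean of its probe sets the si-BAP1 call was lost (0.11, adjusted p 0.0720).

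Of the cytokinesis kinesins, KIF20A was higher in si-MBD5 and KIF23 lower in si-BAP1 cells. KIF20A, or MKLP2, brings the chromosomal passenger complex to the midzone. It read 296, 300.4 and 304 on the si-BAP1 arrays, 327, 327 and 302 on the si-MBD5 arrays and 269, 274 and 286 on the si-Control arrays. No knockdown array fell within the control range, and the call was made in si-MBD5 (0.20 ± 0.043, adjusted p = 0.00678) and not in si-BAP1 cells (0.11 ± 0.043, adjusted p = 0.0756). KIF23, or MKLP1, is the motor subunit of centralspindlin and was the only mitotic kinesin called lower. Its brightest probe set read 182, 234 and 221 on the si-BAP1 arrays, 290.3, 287 and 235 on the si-MBD5 arrays and 259.6, 257 and 338 on the si-Control arrays. The si-BAP1 arrays were below all si-Control arrays, and si-BAP1 replicate 1 was the lowest of the 9. The difference was -0.40 ± 0.11 (adjusted p = 0.0167) in si-BAP1 and -0.064 ± 0.11 (adjusted p = 0.758) in si-MBD5 cells, and the si-BAP1 call was lost without si-BAP1 replicate 1 (-0.29, adjusted p 0.0791). The second KIF23 probe set (11756918_a_at) read 206, 229 and 232 on the si-BAP1 arrays, 261, 259 and 265 on the si-MBD5 arrays and 272, 287 and 258 on the si-Control arrays. It was lower in si-BAP1 cells under every alternative in which single probe sets were tested (-0.28 ± 0.052, adjusted p = 0.00186) and also lower than in si-MBD5 cells (-0.22 ± 0.052, adjusted p = 0.0201). The call against si-MBD5 was lost without si-BAP1 replicate 1 (adjusted p 0.0828) or si-MBD5 replicate 1 (0.0692).

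The mitotic kinesins that passed in neither knockdown were KIF14, a partner of citron kinase, KIF18A, which damps chromosome oscillations, KIF20B, which acts late in cytokinesis, and the chromokinesin KIF22. Their differences in si-BAP1 cells were 0.059, 0.031, 0.24 and 0.10, and in si-MBD5 cells 0.13, 0.14, 0.11 and 0.065. KIF20B in si-BAP1 cells was close to the threshold (adjusted p = 0.0517). In si-BAP1 as in si-MBD5 cells, 10 of the 11 mitotic differences were above 0 and that of KIF23 was below it. KIF2A, whose class was varied as an alternative, was counted with the other kinesins. It was below 0 in both knockdowns (-0.048 ± 0.041 and -0.030 ± 0.041) with no call. The class median was 0.12 in si-BAP1 and 0.16 in si-MBD5 cells.

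**Figure D3:**
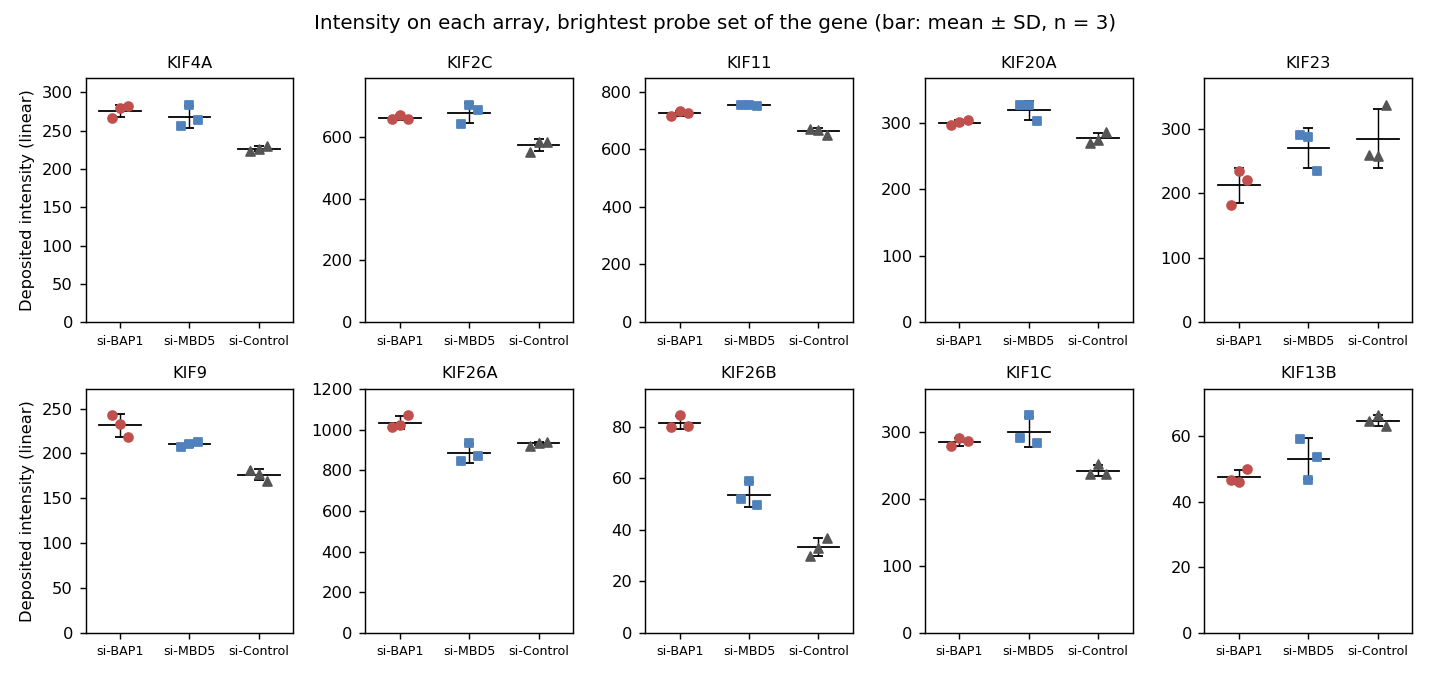
Deposited linear intensity on each array for the brightest probe set of 10 KIF genes, with the mean and SD of each group (n = 3). KIF4A, KIF2C, KIF11, KIF20A, KIF9, KIF26B and KIF1C are higher on all si-BAP1 and si-MBD5 arrays than on the si-Control arrays, KIF13B is lower on them, and on the si-BAP1 arrays KIF23 is lower and KIF26A higher than on the si-Control arrays.

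The transport kinesins had no common direction: KIF1C was higher and KIF13B lower in both knockdowns, and most of the others did not pass. KIF1C carries Golgi-derived and dense-core vesicles. It read 278, 289.9 and 286 on the si-BAP1 arrays, 290.0, 324 and 283 on the si-MBD5 arrays and 238, 251 and 237 on the si-Control arrays. No array overlapped with the controls, and the differences were 0.22 ± 0.050 (adjusted p = 0.00558) in si-BAP1 and 0.29 ± 0.050 (adjusted p = 0.00166) in si-MBD5 cells, called under every alternative. KIF13B, also named GAKIN, transports membrane-associated cargo such as the Discs large protein. It read 46.7, 46.05 and 49.9 on the si-BAP1 arrays, 58.97, 46.5 and 53.7 on the si-MBD5 arrays and 64.7, 66.3 and 63.1 on the si-Control arrays. All knockdown arrays were below all controls (-0.35 ± 0.062, adjusted p = 0.00102 in si-BAP1 and -0.23 ± 0.062, adjusted p = 0.0218 in si-MBD5). The si-BAP1 call held under every alternative in which KIF13B was tested, which leaves out the filter at the 60th percentile, whereas the si-MBD5 call was lost without si-MBD5 replicate 2 (-0.16, adjusted p 0.0666), si-Control replicate 1 (0.0583) or si-Control replicate 2 (0.0855).

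KIF3A and KIF3B form the heterotrimeric kinesin-II with the adaptor KIFAP3 and drive transport into cilia. The brightest KIF3A probe set read 64.1, 64.4 and 66.00 on the si-BAP1 arrays, 59.99, 64.4 and 52.95 on the si-MBD5 arrays and 62.4, 83.3 and 77.8 on the si-Control arrays. The si-MBD5 and si-Control arrays overlapped, with si-Control replicate 1 lying inside the si-MBD5 range. KIF3A was nevertheless called lower in si-MBD5 cells (-0.26 ± 0.079, adjusted p = 0.0346). Without si-Control replicate 2 its difference shrank to -0.084 (adjusted p 0.482), with the mean of its probe sets to -0.12 (0.165) and without _x_at and _s_at probe sets to -0.10 (0.264), and the call was also lost without si-BAP1 replicate 3 (0.0550), si-MBD5 replicate 1 (0.0865) or 3 (0.118), or si-Control replicate 3 (0.115). The 2 further KIF3A probe sets gave -0.10 and 0.013 with no call. The first of these had the higher mean in si-BAP1 (66.9 against 64.8) and si-MBD5 cells (61.6 against 59.1). The choice of the other thus rested on the si-Control arrays (74.5 against 67.2), that is, on the difference that was then tested. A KIF3B probe set other than the brightest (11716626_at) read 204, 207 and 207 on the si-BAP1 arrays, 182, 204 and 177 on the si-MBD5 arrays and 204, 213 and 223 on the si-Control arrays. Its si-MBD5 and si-Control ranges touched at 1 value, and its difference of -0.17 ± 0.053 passed narrowly (adjusted p = 0.0499), while the brightest KIF3B probe set gave -0.12 (adjusted p = 0.103). That narrow call was lost without any 1 of the arrays except si-MBD5 replicate 2, with adjusted p between 0.0532 and 0.165.

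Probe sets of KIF16B and KIF1B disagreed in direction. KIF16B binds phosphoinositides through a PX domain and moves early endosomes. Its brightest probe set (11755516_a_at) read 74.8, 82.3 and 74.03 on the si-BAP1 arrays, 102, 103 and 92.02 on the si-MBD5 arrays and 82.2, 96.1 and 100.2 on the si-Control arrays, and the other above the filter (11759848_at) read 57.9, 54.2 and 60.9 on the si-BAP1 arrays, 61.4, 64.2 and 61.2 on the si-MBD5 arrays and 47.7, 49.2 and 53.5 on the si-Control arrays. The first was lower in si-BAP1 than in si-Control cells (-0.22 ± 0.066, adjusted p = 0.0243), with 1 overlapping value, whereas the second was higher (0.16 ± 0.052, adjusted p = 0.0486). In si-MBD5 cells the first did not pass (0.081 ± 0.066) and the second was higher (0.24 ± 0.052, adjusted p = 0.00712), a call that held under every alternative in which it was tested, the filter at the 60th percentile not among them. The si-BAP1 call of the first was lost without si-BAP1 replicate 1 or 3 or si-Control replicate 2 or 3 (adjusted p 0.0787, 0.0963, 0.0973 and 0.105), and that of the second without si-BAP1 replicate 1 or 3, si-MBD5 replicate 1 or 3, or si-Control replicate 1 or 2 (0.112, 0.186, 0.0635, 0.0530, 0.161 and 0.142). With the mean of its probe sets KIF16B had no si-BAP1 call (-0.034, adjusted p 0.673). KIF1B carries mitochondria and synaptic vesicle precursors in neurons. Its brightest probe set (11718635_at) read 465, 474 and 460.1 on the si-BAP1 arrays, 427, 432 and 397 on the si-MBD5 arrays and 426, 427 and 437 on the si-Control arrays, with no call against si-Control (0.11 ± 0.040 and -0.039 ± 0.040). Probe set 11720710_a_at read 78.7, 72.98 and 75.8 on the si-BAP1 arrays, 92.1, 90.2 and 85.97 on the si-MBD5 arrays and 64.2, 67.96 and 67.01 on the si-Control arrays. There all 3 groups were separate, with 0.16 ± 0.046 (adjusted p = 0.0294) in si-BAP1 and 0.36 ± 0.046 (adjusted p = 3.16e-04) in si-MBD5 cells. The si-MBD5 call held under every alternative in which single probe sets were tested, and the si-BAP1 call was lost without si-BAP1 replicate 1 or 3 or any 1 si-Control array (adjusted p 0.0564 to 0.110). Probe set 11718634_a_at read 135, 139.8 and 147 on the si-BAP1 arrays, 121, 129 and 123 on the si-MBD5 arrays and 119, 128 and 129 on the si-Control arrays, and was higher in si-BAP1 cells (0.15 ± 0.048, adjusted p = 0.0476), a call lost without any 1 of 7 arrays (si-BAP1 replicates 2 and 3, si-MBD5 replicates 1 and 3 and each si-Control array, adjusted p 0.0503 to 0.184).

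The other 8 transport kinesins passed on their brightest probe set in neither knockdown. They were the conventional kinesin heavy chains KIF5A, KIF5B and KIF5C, the neuronal vesicle motor KIF1A, KIF3C, KIF13A, KIF17 and KIF3B. Their si-BAP1 differences ran between -0.082 (KIF3C) and 0.12 (KIF5A), and their si-MBD5 differences between -0.12 (KIF3B) and 0.15 (KIF1A). KIF5B read 1585, 1634 and 1658 on the si-BAP1 arrays, 1584, 1649.5 and 1489 on the si-MBD5 arrays and 1649.5, 1688 and 1775 on the si-Control arrays, which overlap. The median over the 13 transport genes was -0.0057 in si-BAP1 and 0.016 in si-MBD5 cells.

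Among the remaining kinesins the calls were all higher. On its brightest probe set, KIF26B had the largest change among the 35 KIF genes above the filter. KIF26A and KIF26B are atypical kinesins that lack motility. In mice KIF26A restrains GDNF-Ret signalling in enteric neurons and KIF26B acts in kidney development and noncanonical Wnt signalling. The brightest KIF26B probe set (11755841_a_at) read 79.9, 84.6 and 80.4 on the si-BAP1 arrays, 52.1, 59.1 and 49.7 on the si-MBD5 arrays and 29.8, 33.02 and 36.9 on the si-Control arrays. The groups did not overlap, with si-MBD5 arrays between the others. The difference was 0.99 ± 0.063 (adjusted p = 2.78e-07) in si-BAP1 and 0.50 ± 0.063 (adjusted p = 1.70e-04) in si-MBD5 cells. The other KIF26B probe set above the filter (11747141_a_at) read 51.7, 46.3 and 43.1 on the si-BAP1 arrays, 51.7, 41.6 and 49.6 on the si-MBD5 arrays and 48.9, 41.8 and 44.7 on the si-Control arrays, with all groups overlapping and no call (0.043 ± 0.070 and 0.056 ± 0.070). On the si-Control arrays 11747141_a_at was the brighter of the 2 (mean 45.1 against 33.2). The choice of 11755841_a_at thus rested on the knockdown arrays, that is, on the difference that was then tested. The 2 KIF26B probe sets under the filter averaged 20.6 and 5.25. KIF26A read 1013, 1022 and 1072 on the si-BAP1 arrays, 846, 936 and 873 on the si-MBD5 arrays and 922, 937 and 939 on the si-Control arrays. Its si-BAP1 arrays were the 3 highest (0.15 ± 0.040, adjusted p = 0.0149), and its si-MBD5 arrays overlapped with the controls (-0.076 ± 0.040). The si-BAP1 call was lost without si-BAP1 replicate 3 (adjusted p 0.0762) or si-Control replicate 1 (0.0531).

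The ciliary kinesins KIF9, KIF27 and KIF24 were higher in si-BAP1 cells. KIF9 is a motor of motile cilia and sperm flagella. It read 243, 233 and 218 on the si-BAP1 arrays, 207, 210.4 and 213 on the si-MBD5 arrays and 182, 177 and 169 on the si-Control arrays. All 3 groups were separate, and the differences of 0.36 ± 0.046 (adjusted p = 6.96e-05) in si-BAP1 and 0.24 ± 0.046 (adjusted p = 0.00332) in si-MBD5 cells held under every alternative. KIF9 was not called between the knockdowns (0.13 ± 0.046, adjusted p = 0.112). KIF27 is the paralogue of the Hedgehog regulator KIF7 and serves motile cilia in mice. It read 33.7, 34.4 and 36.2 on the si-BAP1 arrays, 32.5, 37.4 and 28.8 on the si-MBD5 arrays and 23.5, 28.96 and 29.4 on the si-Control arrays. The si-BAP1 arrays were above the controls (0.23 ± 0.071, adjusted p = 0.0279), the si-MBD5 arrays overlapped with them (0.17 ± 0.071, adjusted p = 0.119), and the si-BAP1 call was lost without si-BAP1 replicate 2 or 3 or si-Control replicate 1 (adjusted p 0.0595, 0.103 and 0.126). KIF24 remodels centriolar microtubules and restrains cilium assembly. It read 57.2, 60.02 and 57.04 on the si-BAP1 arrays, 51.02, 50.3 and 52.3 on the si-MBD5 arrays and 50.95, 52.3 and 49.9 on the si-Control arrays. Here too the si-BAP1 arrays were highest (0.14 ± 0.044, adjusted p = 0.0304) and the si-MBD5 arrays overlapped with the controls (0.003 ± 0.044). KIF24 was not called between the knockdowns (0.14 ± 0.044, adjusted p = 0.0649). The si-BAP1 call was lost on leaving out any 1 si-BAP1 or si-Control array (adjusted p 0.0543 to 0.10). KIF2A, KIF7, KIF12, KIF19, KIF21A and KIF21B passed in neither comparison, with differences of -0.048 to 0.084 in si-BAP1 and -0.03 to 0.13 in si-MBD5 cells.

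**Figure D4:**
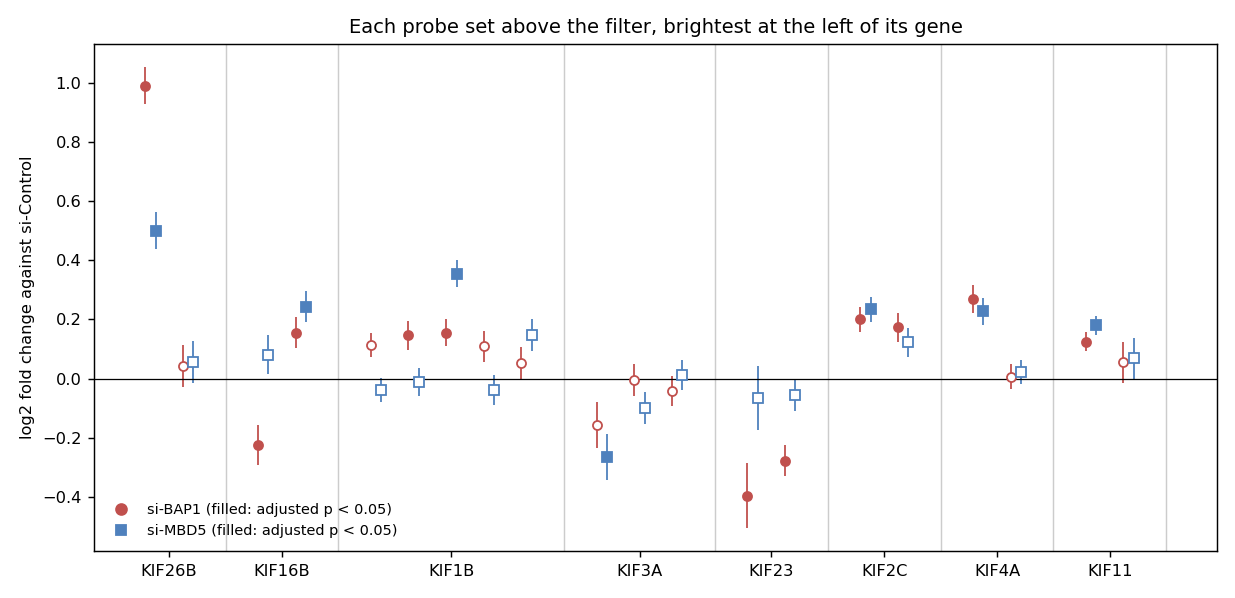
Log2 fold change against si-Control of every probe set above the filter for 8 KIF genes with several probe sets, with the brightest at the left of its gene, lines for the SE and filled symbols for adjusted p under 0.05. The 2 KIF23 probe sets lie on the same side of 0 in si-BAP1, those of KIF16B on opposite sides, and the second KIF26B probe set near 0.

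At the level of probe sets, 19 of 69 KIF probe sets passed in si-BAP1 cells (15 higher and 4 lower, beside 20.5% of 27195 probe sets, 11.6% higher and 8.88% lower) and 14 in si-MBD5 cells (11 higher and 3 lower, beside 12.9%, 6.09% higher and 6.8% lower). These are shares of 27.5% and 20.3%, nearer to the background than the gene counts. Of the 13 genes called in si-BAP1 cells, 7 had a further probe set above the filter. For 2 genes, KIF23 and KIF2C, it had the same call, and for 5 it did not. In si-MBD5 cells 6 of the 11 called genes had one, none with the same call. The si-BAP1 probe set count was 11, 10, 11, 12 and 12 without si-BAP1 replicate 1, si-BAP1 replicate 3, si-Control replicate 1, si-Control replicate 2 and si-Control replicate 3, and the si-MBD5 count was 9 without si-Control replicate 3.

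The direct comparison of si-BAP1 with si-MBD5 cells does not use the si-Control mean, although those arrays enter the estimate of spread. It called 4 of 35 KIF genes, 3 higher and 1 lower in si-BAP1 cells, or 11.4% beside 9.97% of all genes (5.76% higher and 4.21% lower), so the share was close to the background. The arrays of the knockdowns did not overlap for 12 of the 35 genes, beside 25% of all genes. No mitotic kinesin was called. KIF26B (0.49 ± 0.063, adjusted p = 2.75e-04) and KIF26A (0.22 ± 0.040, adjusted p = 0.00285) were higher in si-BAP1 than in si-MBD5 cells under every alternative in which they were tested (KIF26B not with the filter at the 60th percentile). The KIF26B probe set was the brightest only through the knockdown arrays. The other one above the filter (11747141_a_at), brighter on the si-Control arrays, gave -0.012 ± 0.070 with no call. KIF16B was lower (-0.30 ± 0.066, adjusted p = 0.0101), a call lost without si-BAP1 replicate 3 (adjusted p 0.0536) or si-MBD5 replicate 1 (0.0539), and its other probe set did not pass (-0.088 ± 0.052). KIF1B was higher on the brightest of its probe sets (0.15 ± 0.040, adjusted p = 0.0274) and lower on probe set 11720710_a_at (-0.20 ± 0.046, adjusted p = 0.019). The first of these was lost with the mean of probe sets (0.032, adjusted p 0.629), without any 1 si-BAP1 array (adjusted p 0.0660 to 0.0968), si-MBD5 replicate 1 (0.0531) or 3 (0.0890) or si-Control replicate 2 (0.0507), and the second without si-BAP1 replicate 2 (0.0737) or 3 (0.0654) or si-MBD5 replicate 1 (0.0810). Over probe sets, 6 of 69 passed, 3 in each direction, beside 7.81% (4.66% higher and 3.16% lower). Without si-BAP1 replicate 3 or si-MBD5 replicate 1, 2 genes passed in place of 4, and the probe set count was 3 without si-BAP1 replicate 1 or 3 and 2 without si-MBD5 replicate 1.

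Among partners of the mitotic kinesins that carry no KIF symbol, the calls against si-Control were all higher. Of 20 such genes, 9 were higher and none lower in each knockdown, or 45% beside 12.4% (si-BAP1) and 7.29% (si-MBD5) of all genes called higher, with medians of 0.11 in si-BAP1 and 0.13 in si-MBD5 cells. They lay at the 65.7th to 98.2nd percentile of mean intensity. Of all genes above the 60th percentile, 31.0% in si-BAP1 and 21.9% in si-MBD5 cells were called in either direction. In si-BAP1 cells the largest differences were those of the spindle pole protein ASPM (0.27 ± 0.059, adjusted p = 0.00431), the midzone kinase AURKB (0.24 ± 0.051, adjusted p = 0.00329) and the kinetochore motor CENPE (0.23 ± 0.047, adjusted p = 0.00291). In si-MBD5 cells they were those of BIRC5, the survivin subunit of the chromosomal passenger complex (0.30 ± 0.034, adjusted p = 6.45e-05), AURKB (0.28 ± 0.051, adjusted p = 0.00236) and CENPE (0.26 ± 0.047, adjusted p = 0.00207). Of this list 2 genes passed between the knockdowns, both lower in si-BAP1 than in si-MBD5 cells: BIRC5 (-0.35 ± 0.034, adjusted p = 2.46e-05) and the spindle protein HMMR (-0.25 ± 0.039, adjusted p = 0.0013). These are 10% beside 9.97% of all genes, a share close to the background. BIRC5 read 755, 771 and 772 on the si-BAP1 arrays, 947, 1001 and 1002 on the si-MBD5 arrays and 803, 793 and 788 on the si-Control arrays. Of 15 proliferation markers, 6 were higher and 1 lower in si-BAP1 and 5 higher and none lower in si-MBD5 cells, or 46.7% and 33.3% beside 23.5% and 16.3% of all genes, with medians of 0.089 and 0.069. The most changed were RRM2 (0.31 ± 0.044), BUB1B (0.21 ± 0.049) and BUB1 (0.19 ± 0.059) in si-BAP1 cells, and BUB1 (0.23 ± 0.059), BUB1B (0.17 ± 0.049) and CCNB1 (0.14 ± 0.034) in si-MBD5 cells. The marker lower in si-BAP1 cells, named after its value was seen, was the replication clamp PCNA (-0.18 ± 0.034). The other 8 and 10 markers did not pass, and the part of proliferation markers in the kinesin differences was not tested.

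Partners of the transport kinesins, among them light chains and adaptors, had 1 gene higher and 1 lower of 17 tested in each knockdown, with medians of -0.024 in si-BAP1 and -0.018 in si-MBD5 cells. These are 11.8% beside 23.5% and 16.3% of all genes, below the background. TRAK1, the adaptor between kinesin-1 and mitochondria, was higher in si-BAP1 (0.32 ± 0.055, adjusted p = 7.84e-04) and si-MBD5 cells (0.20 ± 0.055, adjusted p = 0.0224). It read 184, 170.0 and 170.5 on the si-BAP1 arrays, 159, 155 and 167 on the si-MBD5 arrays and 149, 131 and 132 on the si-Control arrays, with no knockdown array in the control range. The genes called lower were the JIP-family scaffold MAPK8IP2 in si-BAP1 (-0.22 ± 0.052, adjusted p = 0.00619) and SPAG9, or JIP4, in si-MBD5 cells (-0.16 ± 0.050, adjusted p = 0.0409), while MAPK8IP1 and MAPK8IP3 passed in neither. Between the knockdowns none of these partners passed at an adjusted p of 0.05.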

How the data were processed

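Total RNA of 9 HCCC-9810 cultures was labelled and hybridised to Affymetrix arrays. The submitters' processing notes name the deposited values MAS5 intensities, and the values lie on a linear scale. Some probe sets repeat exactly the same value on several arrays, such as KIF5C 11754324_s_at (2.53 on every si-MBD5 and si-Control array). The cause of these ties was not tested. The scaling, software version and build are not given in the sources used here. Probe sets were named from the platform's annotation (1832 with several and 2473 with no symbol were left out), and symbols were updated through RefSeq. log2(intensity + 16) was fitted with limma 3.58.1 (R 4.3.3, lmFit, eBayes with intensity trend, 3 group means over all 9 arrays, residual df 6). Probe sets with a mean above the 40th percentile (25.51) were kept, 1 brightest a gene (12434 genes) and, separately, all 27195. P-values were adjusted by Benjamini-Hochberg over each table, with a threshold of 0.05, and fold changes understate those of dim probe sets. Levels of different probe sets were compared only for the filter, the choice of the brightest, percentiles and marker sums. The 3 replicates a group limit the precision. The fit was tested on simulated data with 50 genes changed at each size. It recovered 2% of log2 changes of 0.1 in either comparison with si-Control. For changes of 0.25 it recovered 54% in si-BAP1 and 60% in si-MBD5, and for changes of 0.5 it recovered 96% in both. Alternatives covered the added constant, scaling, filter, probe set choice, variance model, replicate block, samples in the fit, the class of KIF2A and leaving out each array. Per-array values are given for KIF genes past the threshold against si-Control on any probe set above the filter. From the partner lists, up to 3 called genes with the largest changes per list and comparison are named. The members and lists were chosen with earlier results of these data known. Drawing used matplotlib 3.10.9.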

Additional observations from a re-analysis of the deposited data

Results flagged for a closer look

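Several KIF genes differed between the knockdowns in the direct comparison of si-BAP1 with si-MBD5 arrays, which tests the difference of the 2 effects itself because both were set against the same controls (limma, adjusted p under 0.05). On the log2 scale, si-BAP1 minus si-MBD5 was 0.2242 for KIF26A, 0.4899 for KIF26B, -0.3049 for KIF16B and 0.1525 for KIF1B. Among further probe sets it was -0.2221 for KIF23 (11756918_a_at) and -0.1992 for KIF1B (11720710_a_at), which is opposite in sign to the brightest KIF1B probe set. The other KIF26B probe set above the filter (11747141_a_at) gave -0.012 with no call. A probe set that names both KIF4A and KIF4B, and so lies outside the single-symbol rule, read 318, 326 and 324 on the si-BAP1 arrays, 310.2, 342 and 319 on the si-MBD5 arrays and 272, 266 and 267 on the si-Control arrays. Its log2 difference from si-Control was 0.2527 in si-BAP1 (adjusted p = 8.55e-04) and 0.2555 in si-MBD5 cells (adjusted p = 0.00166). The KIF4A probe set 11749419_x_at read 68.02, 67.1 and 67.4 on the si-BAP1 arrays, 68.02, 69.1 and 68.02 on the si-MBD5 arrays and 66.9, 66.1 and 68.3 on the si-Control arrays, and gave 0.007 and 0.022 with no call. No group was tested for single outlying arrays, since each holds 3.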

How the results depend on the processing

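Of 256 recomputed counts and medians, 231 stayed close to their values and 25 moved, and none changed direction past a threshold. Of the 28 calls of a KIF gene in a comparison, 14 held under all alternatives in which they were tested, KIF13B and KIF26B not entering the fit with the filter at the 60th percentile: KIF2C, KIF4A, KIF9, KIF13B, KIF1C and KIF26B in si-BAP1, KIF2C, KIF4A, KIF9, KIF20A, KIF1C and KIF26B in si-MBD5, and KIF26A and KIF26B between the knockdowns. The KIF26B probe set was the brightest only through the knockdown arrays, and no alternative chose probe sets from the si-Control arrays alone. The other KIF26B probe set above the filter had no call in si-BAP1 (0.043), in si-MBD5 (0.056) or between the knockdowns (-0.012). With no filter, 12 KIF probe sets passed in si-BAP1 cells in place of 19. With only the 2 groups compared in the fit, 9 passed in si-MBD5 cells in place of 14. The transport median, near 0 throughout, was 0.024 in si-BAP1, -0.039 in si-MBD5 and 0.047 between the knockdowns with the filter at the 60th percentile, 0.036 in si-MBD5 with the mean of probe sets, -0.00059 between the knockdowns without _x_at and _s_at probe sets, and 0.022 in si-BAP1 with array weights. Leaving out each array in turn gave 8 to 17 KIF genes in si-BAP1, 8 to 11 in si-MBD5 and 2 to 5 between the knockdowns, and 10 to 20, 9 to 15 and 2 to 8 probe sets. The transport medians then ran from -0.037 to 0.033, -0.018 to 0.016 and -0.045 to -0.0067, and the mitotic medians from 0.12 to 0.14, 0.15 to 0.18 and -0.063 to -0.0076. With the mean of probe sets, KIF11 lost both calls (adjusted p 0.157 in si-BAP1 and 0.0676 in si-MBD5), KIF18B and KIF16B their si-BAP1 calls (0.0720 and 0.673), KIF3A its si-MBD5 call (0.165) and KIF1B its call between the knockdowns (0.629). KIF3A also lost it without _x_at and _s_at probe sets (0.264). With no filter, the calls of KIF18B (0.0644) and KIF24 (0.0650) in si-BAP1 and of KIF15 (0.0670), KIF18B (0.0637) and KIF3A (0.0613) in si-MBD5 cells were lost. With only the 2 groups compared, KIF18B (0.0535) and KIF3A (0.0760) in si-MBD5 and KIF1B between the knockdowns (0.0618) were lost. KIF18B in si-BAP1 was lost with quantile normalization (0.0620), and KIF15 in si-MBD5 with median centring (0.0991) or no intensity trend (0.0515). Arrays with the same replicate number showed no common pattern of deviation (9 correlations from -0.433 to 0.480, 3 above 0.1). The main fit therefore used no pairing, but with 3 arrays a group these correlations cannot exclude it. With a replicate block, 13, 10 and 4 KIF genes passed in place of 13, 11 and 4, and 16, 12 and 5 probe sets in place of 19, 14 and 6. The gene call lost was that of KIF15 in si-MBD5 cells (adjusted p 0.0610). Counting the 2 identical KIF18B probe sets once, an alternative chosen after seeing the data, removes 1 call in each knockdown. With 3 arrays a group, the standard errors of the KIF genes ran from 0.032 to 0.11, and a difference that did not pass is not shown to be absent. The causes of these dependencies were not tested.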

Other observations

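Dynein and dynactin, which carry cargo toward the opposite microtubule end from most kinesins, had several members called lower in si-BAP1 cells. Of 19 subunits and regulators tested, none was higher and 6 were lower in si-BAP1 cells (median -0.099), against 1 higher and 2 lower in si-MBD5 cells (median -0.045). These are 31.6% beside 23.5% of all genes in si-BAP1 and 15.8% beside 16.3% in si-MBD5 cells, where the share was close to the background. DCTN6, a pointed-end subunit of dynactin, read 292, 308 and 275 on the si-BAP1 arrays, 405, 391 and 431 on the si-MBD5 arrays and 447, 455 and 463 on the si-Control arrays. Its si-BAP1 arrays were the 3 lowest and did not overlap with either other group. The difference from si-Control was -0.61 ± 0.048 in si-BAP1 cells (limma adjusted p = 1.08e-06), and the other leading members were the dynactin subunit DCTN4 (-0.39 ± 0.048, adjusted p = 4.89e-05) and the dynein light chain DYNLT1 (-0.20 ± 0.041, adjusted p = 0.00233). In si-MBD5 cells the called members were the dynactin subunits ACTR10 (-0.21 ± 0.047, adjusted p = 0.00658) and DCTN1 (0.15 ± 0.045, adjusted p = 0.0376) and DYNLT1 (-0.18 ± 0.041, adjusted p = 0.00884). DCTN6 (-0.47 ± 0.048) and DCTN4 (-0.39 ± 0.048) were also lower in si-BAP1 than in si-MBD5 cells, the 2 of 19 that passed there (10.5% beside 9.97% of all genes, close to the background).

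Of the 24 KIF probe sets under the filter, which averaged 2.47 to 24.9, 1 passed in si-BAP1 and 1 in si-MBD5 cells when all 44988 single-symbol probe sets were fitted, or 4.17% beside 11.3% and 6.51% of all of them, below the background. A KIF3B probe set (11716627_a_at) was 0.17 higher in si-BAP1 cells (limma adjusted p = 0.0103), and a KIF1B probe set (11748990_a_at) was 0.18 higher in si-MBD5 cells (adjusted p = 0.0309). Between the knockdowns limma called 0 of the 24, with 1 at an unadjusted p under 0.05.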
